A study of Mus musculus with 8 samples.

Results

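Radial glial cells (RGCs) are the neural stem cells of the embryonic cortex. The genes followed here are 10 that are widely used to identify them or to mark their early state: Nes, Vim, Pax6, Sox2, Sox9, Fabp7, Slc1a3, Prom1, Id4 and Hmga2. They were taken by name from both deposited count tables, which list 23420 genes at E11.5 and 78298 at E12.5, and all 10 were found in each table. All 10 also had enough reads to be tested, among 14935 genes tested at E11.5 and 16326 at E12.5.

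RGCs line the ventricle, divide at its surface and give rise to intermediate progenitor cells (IPCs), neurons and, later, glia. Their identity rests on transcription factors such as Pax6, Sox2 and Sox9, while the intermediate filaments nestin and vimentin run through their long fibers and the glial proteins FABP7 and GLAST appear as they mature. In early neural stem cells the RNA-binding protein LIN28 blocks maturation of the microRNA let-7, and let-7 in turn represses Hmga2, a chromatin protein that is lost as the cortex ages. Bulk RNA from a whole cortex cannot tell fewer cells of a type from less RNA per cell.

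Cortices were dissected from mouse embryos carrying a global knockout allele of Mboat7, the gene for the phosphatidylinositol remodeling enzyme LPLAT11. Embryos labelled Mboat7-/- were compared with Mboat7+/- controls, which also carry 1 knockout allele, so no wild-type cortex was analysed here. Each genotype had 2 embryos at E11.5 and 2 at E12.5, 8 cortices in all, on a C57BL/6N background. The labels give replicates 1 and 2 the batch numbers 1 and 2. The tables of the stages came from different sequencing providers and platforms, so stage and provider cannot be told apart, and levels are not compared between stages.

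A cortex had between 21843330 and 28189771 counts at E11.5 and between 20799311 and 23330432 at E12.5. The 10 genes held between 0.445% and 0.491% of the counts at E11.5 and between 0.344% and 0.381% at E12.5. No pair of cortices within a stage agreed within sampling noise, with chi-square values per degree of freedom from 4.69 to 25.9. Mboat7 itself was counted 700 and 876 times in the E11.5 Mboat7+/- cortices, against 1103 and 860 times in those labelled Mboat7-/-. At E12.5 the controls had 739 and 782 Mboat7 counts and the cortices labelled Mboat7-/- had 730 and 729. At E11.5 the log2 difference of Mboat7 was 0.17 (edgeR FDR 0.527), and one day later it was -0.17 (edgeR FDR 0.958), so the transcript level does not separate the genotypes and every direction below rests on the labels. The labels and the study's methods as read here do not say which part of the transcript the knockout allele removes. The sexes were not balanced over the genotypes at E11.5, where Mboat7+/- replicate 1 alone had a high count of Xist (17875, with no more than 2 anywhere else). The dorsal cortex genes Emx1, Emx2, Lhx2 and Pax6 were counted in all 8 cortices, with sums of 609.6 to 853 CPM at E11.5 and 792 to 856 CPM at E12.5. Nkx2-1, a gene of the ventral telencephalon, was also counted in all of them, at 65.2 to 149.9 CPM.

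Hmga2 had the widest range between cortices of one stage, so the sequences through which let-7 can reach its transcript are shown first. In RefSeq (GRCm38.p6), 9 mouse microRNAs of the let-7 family share the seed at bases 2 to 8, here in capitals, and 3 of them are given in full:
mmu-let-7a-5p: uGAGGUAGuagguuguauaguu
mmu-let-7b-5p: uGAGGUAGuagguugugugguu
mmu-let-7g-5p: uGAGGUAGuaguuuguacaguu
The complement of the seed, CTACCTC, occurs 4 times in the 3′ UTR of the Hmga2 transcript with the longest such region (3014 bases, GENCODE M21 on GRCm38, gene at chr10:120361275-120476469, minus strand). The sites, in capitals with their neighboring bases, lie in exonic sequence:
Hmga2 site at chr10:120364225-120364231: gccgacattcaatttCTACCTCagc
Hmga2 site at chr10:120362988-120362994: ccccactcctcaataCTACCTCtga
Hmga2 site at chr10:120362550-120362556: ctgatttgcaaggaaCTACCTCcac
Hmga2 site at chr10:120361692-120361698: aatcaaaacacactaCTACCTCtta
The heptamer was searched on the transcript strand only. It occurs at least 1 time in 9.03% of 20984 genes with a 3′ UTR, and in 15.9% of the 2890 genes whose 3′ UTR length is within 25% of that of Hmga2. Only 12 genes, Hmga2 included, have 4 or more sites. Hmga2 was the only 1 of the 10 genes with a site, against 7 of 8 early neural stem cell genes that are taken up below. The latter list holds the LIN28 genes, which act on let-7, and was not chosen independently of that pathway. Its count is therefore no test of let-7 in these cortices. The lists are not matched for length: 3′ UTRs ran from 277 to 3093 bases in the former and from 1183 to 6337 in the latter. These are matches of letters, and let-7 itself was not measured.

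The promoters of Hmga2 and Fabp7 are shown because E11.5 Mboat7-/- replicate 1 had the highest Hmga2 and the lowest Fabp7 of its stage. The pair was chosen after the values were seen. The table of RefSeq promoters (GRCm38.p6, 250 bases before to 50 after the start) had entries for 9 of the 10 genes, 11 promoters in all. The TATA box was searched as TATAAA. The CCAAT box was searched by the letters of its name. The GC box was searched as GGGCGG. The SOX core was searched as ACAAAG. The HES N box was searched as CACNAG, with N for any base. Capitals mark every match on either strand, and only the 250 bases before the start are printed:
Fabp7, chr10:57784673-57784922, plus strand: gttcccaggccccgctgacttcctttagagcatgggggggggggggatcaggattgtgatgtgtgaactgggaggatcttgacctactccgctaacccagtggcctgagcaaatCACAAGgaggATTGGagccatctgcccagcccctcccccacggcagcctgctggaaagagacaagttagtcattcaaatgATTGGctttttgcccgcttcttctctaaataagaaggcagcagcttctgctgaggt
Hmga2, chr10:120476470-120476719, minus strand: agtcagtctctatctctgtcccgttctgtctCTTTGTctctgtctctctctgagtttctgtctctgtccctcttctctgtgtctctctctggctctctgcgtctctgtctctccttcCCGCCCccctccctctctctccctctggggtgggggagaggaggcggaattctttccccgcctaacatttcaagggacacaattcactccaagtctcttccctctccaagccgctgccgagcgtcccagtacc
Fabp7 held 2 CCAAT boxes and 1 HES N box, and Hmga2 held 1 SOX core and 1 GC box. No match of one motif overlapped a match of another in these promoters. A CCAAT box was found in 7 of the 11 promoters of the 10 genes and in 37.4% of all 32851 promoters. A GC box was in 6 of 11 (35.7% of all), a HES N box in 7 of 11 (42.5% of all), a SOX core in 3 of 11 (18.7% of all) and a TATA box in 2 of 11 (13.6% of all).

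The 10 genes differed widely in level per kilobase of exon, a scale on which genes can be compared. At E11.5 Vim led with 326 CPM per kb, the mean of 4 cortices, followed by Nes (181), Sox2 (178), Fabp7 (168), Hmga2 (97.7), Id4 (74.1), Sox9 (45.5), Prom1 (17.1), Pax6 (12.1) and Slc1a3 (5.80). The ranges over cortices overlapped between Nes and Sox2 and between Sox2 and Fabp7, and between no other neighbors in that order. At E12.5 the order was Vim (267), Fabp7 (242), Id4 (127), Sox2 (114), Nes (106), Sox9 (36.1), Hmga2 (32.7), Prom1 (13.7), Pax6 (9.46) and Slc1a3 (8.45). Here the neighbors Vim and Fabp7, Sox2 and Nes, Sox9 and Hmga2, and Pax6 and Slc1a3 could not be ranked against each other by their ranges. The ranges of Id4 (123 to 133) and Nes (89.3 to 124), which are not neighbors in that order, also overlapped. The exons of all annotated transcripts were joined to 1 length per gene, which for Pax6 comes to 11694 bases and lowers its level per kb.

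The question put to these data was whether the genes that define RGCs are expressed at another level when Mboat7 is lost. At neither stage did any of the 10 genes pass a false discovery rate (FDR) of 0.05 by the quasi-likelihood test of edgeR, with Benjamini-Hochberg adjustment taken over all genes tested. At E11.5 this count of 0 stands against 0% of the 14935 genes, although 2054 genes (13.8%) had an unadjusted p under 0.05. DESeq2 called 178 genes and edgeR with the replicate number as a block called 349, and none of the 10 was among either. At E12.5 the count of 0 stands against 3 of 16326 genes (0.0184%), with 671 genes (4.11%) at an unadjusted p under 0.05. There DESeq2 called 10 genes and the blocked fit 21, again without any of the 10. The 10 genes had a median log2 difference of -0.02 at E11.5, beside -0.01 over all genes tested, and of -0.03 at E12.5, beside 0.00.

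**Figure D1:**
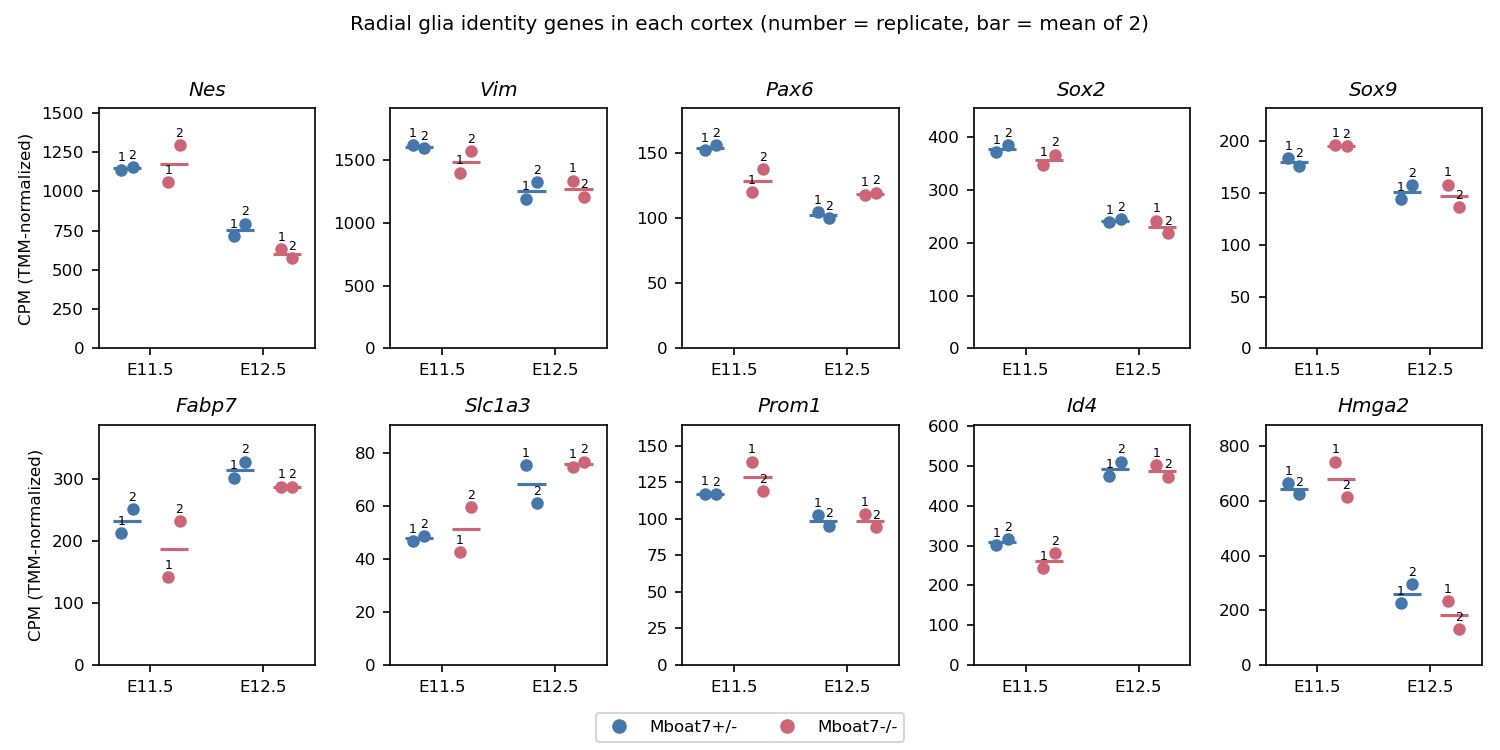
Level of each of the 10 genes in TMM-normalized CPM (vertical axes, starting at 0) in every cortex at E11.5 and E12.5, with Mboat7+/- in blue, Mboat7-/- in red, the replicate number above each point and a bar at the mean of 2 cortices. Pax6 lies lower in both E11.5 Mboat7-/- cortices and higher in both E12.5 ones, Nes lies lower in both E12.5 ones, and Hmga2 in E12.5 Mboat7-/- replicate 2 (132 CPM) lies below the other 3 cortices of that stage. Levels of the 2 stages come from different providers.

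The transcription factors come first. Pax6 specifies dorsal cortical progenitors and drives neurogenesis from RGCs. At E11.5 it was at 152 and 156 CPM in the Mboat7+/- cortices and at 120 and 138 CPM in the Mboat7-/- cortices. Both Mboat7-/- cortices were thus below both controls, with a log2 difference of -0.26 (SE 0.08, 95% interval -0.44 to -0.07, edgeR FDR 0.239). Within batch 1 the log2 ratio was -0.34 and within batch 2 it was -0.18. At E12.5 Pax6 was at 105 and 99.9 CPM in the Mboat7+/- cortices and at 118 and 120 CPM in the Mboat7-/- cortices. Here both Mboat7-/- cortices were above both controls, with a log2 difference of 0.22 (SE 0.09, 95% interval 0.02 to 0.41, edgeR FDR 0.958) and within-batch ratios of 0.17 and 0.26. The FDR thus gave no call at either stage. The stage by genotype term of a fit over all 8 cortices was 0.47 for Pax6 (SE 0.12, 95% interval 0.21 to 0.73), which did not pass adjustment over 14986 genes (edgeR FDR 0.518). Pax6 was the only 1 of the 10 without overlap at both stages. Among the 13649 genes tested at both, 5.15% were without overlap in opposite directions and 9.63% in the same direction.

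Sox2 and Sox9 are SOX factors that keep neural stem cells undifferentiated and multipotent. Sox2 was at 371 and 384 CPM in the E11.5 Mboat7+/- cortices and at 347 and 366 CPM in the Mboat7-/- cortices, which were the lower ones by a small margin (log2 -0.08, edgeR FDR 0.579). At E12.5 it was at 239 and 244 CPM against 241 and 218 CPM, and the genotypes overlapped (95% interval of the log2 difference -0.29 to 0.15). Sox9 was at 184 and 176.5 CPM in the E11.5 Mboat7+/- cortices and at 196.5 and 195 CPM in the Mboat7-/- cortices. Both Mboat7-/- cortices were above the controls, but the difference of 0.12 on the log2 scale did not pass (SE 0.06, edgeR FDR 0.441). At E12.5 Sox9 overlapped, at 144.5 and 158 CPM against 158 and 136 CPM.

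Id4, an inhibitor of basic helix-loop-helix factors that is needed for normal proliferation of cortical progenitors, was at 301 and 317 CPM in the E11.5 Mboat7+/- cortices and at 243 and 280.1 CPM in the Mboat7-/- cortices. The Mboat7-/- cortices were again the lower ones, with a log2 difference of -0.24 (SE 0.08, 95% interval -0.42 to -0.06, edgeR FDR 0.254). At E12.5 Id4 was at 475 and 511 CPM against 503 and 473 CPM, and the 2 genotypes covered nearly the same range (log2 -0.02, 95% interval -0.24 to 0.22). Id4 has exons that overlap genes on the other strand (Gm49291 and A330033J07Rik), and whether the counting used strand is not given in the sources used here.

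Among the structural genes, Nes codes for nestin, the intermediate filament protein of RGC fibers. At E12.5 it was at 714 and 795 CPM in the Mboat7+/- cortices and at 632 and 573 CPM in the Mboat7-/- cortices. Both Mboat7-/- cortices were below both controls, and the log2 difference was -0.32 (SE 0.11, 95% interval -0.57 to -0.07, edgeR FDR 0.958). The log2 ratio was -0.18 within batch 1 and -0.47 within batch 2. At E11.5 the Mboat7+/- cortices were at 1138 and 1154 CPM and lay between the Mboat7-/- cortices at 1059 and 1295 CPM (log2 0.04, 95% interval -0.16 to 0.24). For Nes the stage by genotype term was -0.36 (SE 0.15, edgeR FDR 0.849).

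Vim, which codes for the partner filament vimentin, was at 1621 and 1596 CPM in the E11.5 Mboat7+/- cortices and at 1400 and 1571 CPM in the Mboat7-/- cortices. It was lower in both Mboat7-/- cortices, by 2 unequal amounts, and the log2 difference was -0.12 (SE 0.06, edgeR FDR 0.471). At E12.5 Vim overlapped, with 1193 and 1323 CPM against 1337 and 1209 CPM. Prom1, the gene of the apical membrane protein prominin-1 (CD133), was at 117 CPM in both E11.5 Mboat7+/- cortices and at 139 and 119 CPM in the Mboat7-/- cortices. The Mboat7-/- cortices were above the controls, almost all of it in replicate 1 (log2 0.14, edgeR FDR 0.515). At E12.5 it was at 102 and 95.2 CPM against 103 and 94.2 CPM, with a log2 difference whose 95% interval ran from -0.21 to 0.21. Exons of Prom1 overlap those of Gm16401 on the opposite strand, and with the strand setting not given reads of the pair may not be told apart.

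The genes of glial character are Fabp7, which codes for the brain fatty acid-binding protein BLBP, and Slc1a3, which codes for the glutamate transporter GLAST. Fabp7 was at 213 and 251.5 CPM in the E11.5 Mboat7+/- cortices and at 142 and 232 CPM in the Mboat7-/- cortices. Replicate 1 of the Mboat7-/- cortices was far below the other 3, while replicate 2 lay between the controls, so the genotypes overlapped (log2 -0.31, SE 0.19, edgeR FDR 0.509). At E12.5 Fabp7 was at 303 and 329 CPM against 288.5 and 288 CPM. The Mboat7-/- cortices were lower and almost equal there, and the log2 difference of -0.13 did not pass (SE 0.10, edgeR FDR 0.958). Slc1a3 was at 46.9 and 48.8 CPM against 42.8 and 59.7 CPM at E11.5, and at 75.5 and 61.1 CPM against 75.0 and 76.9 CPM at E12.5. Its genotypes overlapped at both stages.

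Hmga2, which codes for the high-mobility group protein of young neural stem cells, was at 226 and 296 CPM in the E12.5 Mboat7+/- cortices and at 233 and 132 CPM in the Mboat7-/- cortices. Replicate 1 of the Mboat7-/- cortices lay between the controls and replicate 2 was 2.25-fold below the highest cortex. The log2 difference was -0.52 (SE 0.22, 95% interval -0.995 to -0.04, edgeR FDR 0.958), made up of a within-batch ratio of 0.04 in batch 1 and -1.17 in batch 2. With E12.5 Mboat7-/- replicate 2 left out it was -0.16, and with Mboat7-/- replicate 1 left out it was -0.99. With Mboat7+/- replicate 1 left out it was -0.70. At E11.5 Hmga2 was at 665 and 624 CPM against 743.5 and 613 CPM, which overlapped (log2 0.07, edgeR FDR 0.748). The gene 1700006J14Rik on the other strand overlaps exons of Hmga2.

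In counts, the genotypes did not overlap for 6 of the 10 genes at E11.5, of which 4 were lower in Mboat7-/- (Vim, Pax6, Sox2 and Id4) and 2 higher (Sox9 and Prom1). Over all genes tested 46.4% did not overlap, 23.3% lower and 23.1% higher. At E12.5 this held for 3 of 10, with Nes and Fabp7 lower and Pax6 higher, against 32% of all genes, 15.2% lower and 16.9% higher. An unadjusted p under 0.05 was reached at E11.5 by Pax6 and Id4, both lower, where 5.81% of all genes were lower at that level. At E12.5 it was reached by Nes and Hmga2, both lower (1.35% of all genes), and by Pax6, higher (2.76% of all genes). With the replicate block Fabp7 joined Pax6 and Id4 at E11.5, and of the 3 at E12.5 only Hmga2 was still under 0.05. The blocked fit also called more of all genes at the FDR threshold than the main fit did, at both stages.

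**Figure D2:**
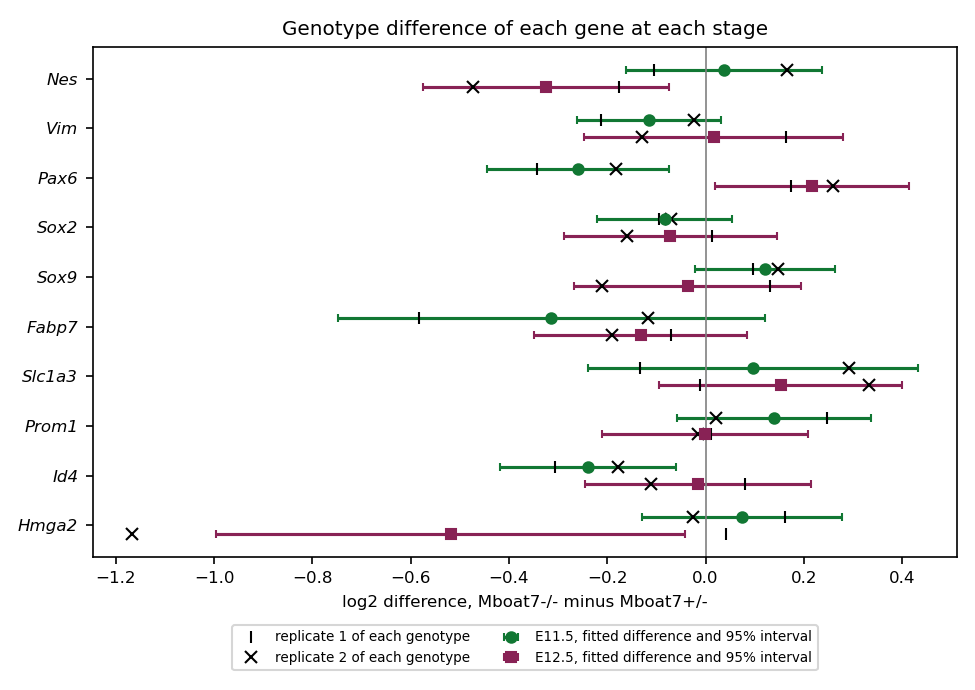
Log2 difference of Mboat7-/- from Mboat7+/- (horizontal axis) for each gene, with the edgeR estimate and its 95% interval at E11.5 (green circles) and E12.5 (purple squares), and the ratio within replicate 1 (bars) and replicate 2 (crosses) in black. The intervals of Pax6 lie on opposite sides of 0 at the 2 stages (-0.26 and 0.22), and the replicates of Hmga2 at E12.5 lie far apart (0.04 and -1.17).

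The 8 cortices were then fitted together, allowing for stage, to ask whether any gene differed in 1 direction at both stages. No gene of the 10 had an unadjusted p under 0.05 there, where 1696 of 14986 genes (11.3%) did, and none of the 14986 genes passed an FDR of 0.05 in edgeR (0%), where DESeq2 called 3. Fabp7 had the smallest p of the 10, with a log2 difference of -0.22 (SE 0.12, 95% interval -0.47 to 0.04, edgeR FDR 0.497). Its difference was -0.36 without E11.5 Mboat7-/- replicate 2 and -0.08 without E11.5 Mboat7-/- replicate 1. With the replicate block it was -0.24, with an unadjusted p under 0.05. Id4 followed with -0.12 (edgeR FDR 0.504) and Nes with -0.14 (edgeR FDR 0.549). For Sox2 the interval of the log2 difference ran from -0.19 to 0.04 and for Vim from -0.19 to 0.10. The stage by genotype term was under an unadjusted p of 0.05 for 853 genes (5.69%), among them Pax6 (higher, as for 2.62% of all genes) and Nes (lower, as for 3.07%), and no gene passed the FDR in edgeR (0%), where DESeq2 called 17. With the replicate block, Pax6 and Hmga2 were under that p for this term and Nes was not.

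One cortex set much of the spread at E11.5. Mboat7-/- replicate 1 lay farthest from the mean of its stage for 7 of the 10 genes, a place it held for 33.1% of all genes tested. On the log2 scale it was below the stage mean by 0.53 for Fabp7, 0.23 for Pax6 and 0.22 for Id4, and above it by 0.18 for Prom1 and 0.17 for Hmga2. The ratio of Hmga2 to Fabp7, in CPM and chosen after the values were seen, was 5.23 there and 3.12, 2.48 and 2.64 in the other E11.5 cortices. With Mboat7-/- replicate 2 left out, replicate 1 alone stood for the genotype. The log2 differences were then -0.20 for Vim, -0.36 for Pax6, -0.71 for Fabp7, 0.25 for Prom1 and -0.35 for Id4. With replicate 1 left out instead, the log2 differences were -0.16 for Pax6, -0.14 for Id4 and -0.0016 for Fabp7.

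At E12.5 the cortices farthest from the stage mean were Mboat7+/- replicate 2 for 5 of the 10 genes (31% of all genes) and Mboat7-/- replicate 2 for 4 of them (36.8% of all genes). Hmga2 was above the mean by 0.47 in the former and below it by 0.69 in the latter on the log2 scale. The ratio of Hmga2 to Fabp7 was 0.457 in Mboat7-/- replicate 2 and 0.806 in replicate 1, against 0.746 and 0.899 in the controls.

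**Figure D3:**
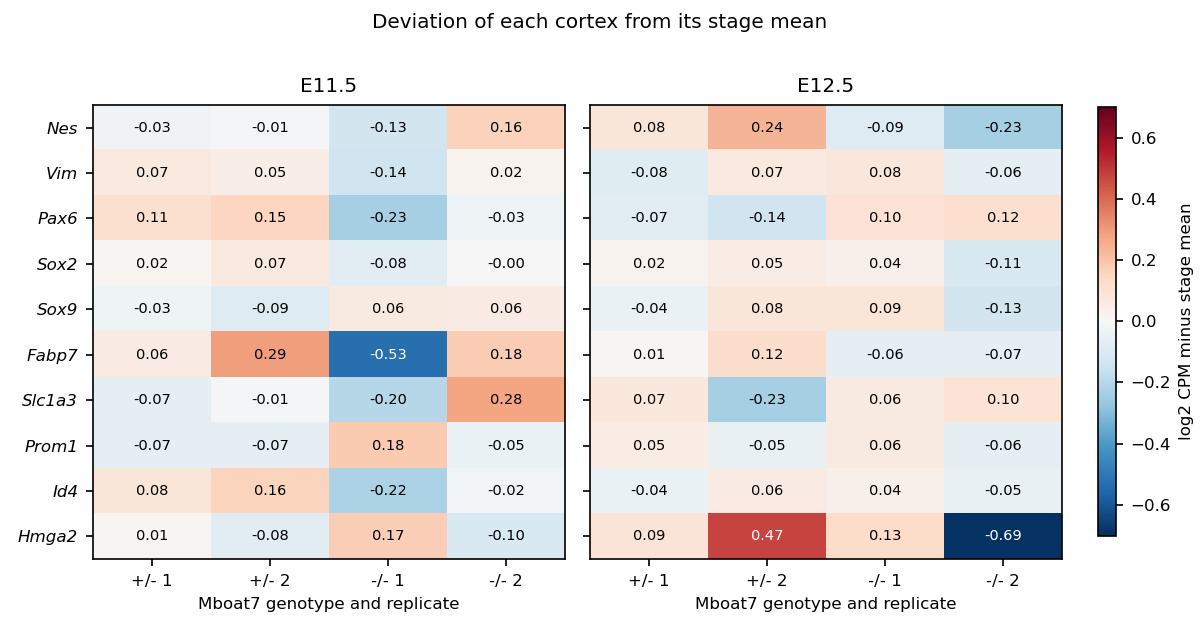
Deviation of each cortex from the mean of its stage, in log2 CPM (0.5 CPM added), for the 10 genes (rows) and the 4 cortices of each stage (columns), with red above and blue below the mean and the value written in each cell. E11.5 Mboat7-/- replicate 1 is low for Fabp7 (-0.53), Pax6 and Id4 and high for Prom1 and Hmga2, and E12.5 Mboat7-/- replicate 2 is low for Hmga2 (-0.69).

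**Figure D4:**
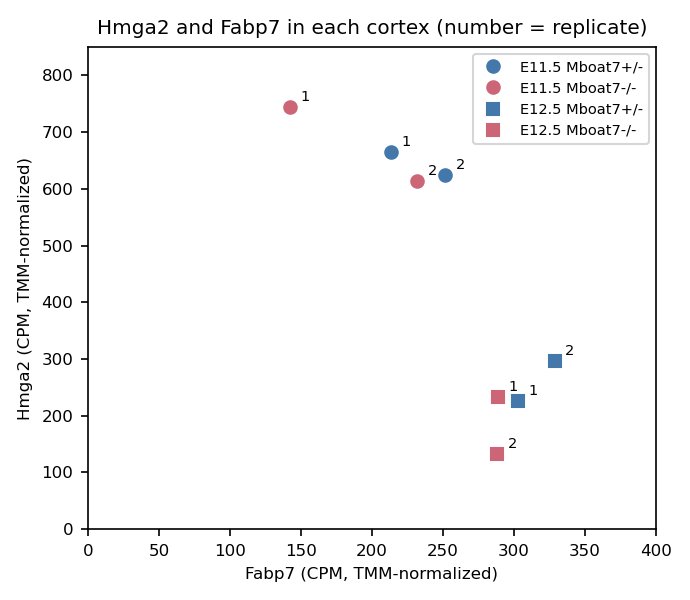
Hmga2 against Fabp7 in each of the 8 cortices, both in TMM-normalized CPM, with E11.5 as circles, E12.5 as squares, Mboat7+/- in blue, Mboat7-/- in red and the replicate number beside each point. E11.5 Mboat7-/- replicate 1 has the highest Hmga2 (743.5 CPM) and the lowest Fabp7 (142 CPM) of its stage, and E12.5 Mboat7-/- replicate 2 the lowest Hmga2 (132 CPM). The stages come from different providers.

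Other genes of early neural stem cells were read beside Hmga2. These are the LIN28 genes, Trim71, the Igf2bp genes, Hmga1 and Ccnd1. At E11.5 all 8 had a log2 difference above 0, where 49% of all genes did, with a median of 0.15 beside -0.01 over all genes. None of them had an unadjusted p under 0.05, and the genotypes of all 8 overlapped. With the replicate block 4 of the 8 were higher at that level, and with no low-count filter 2 were. Both of those fits also called more of all genes at the FDR threshold than the main fit did, as given below. At E12.5 only 1 of 8, Lin28b, was above 0, where 51.2% of all genes were, and the median was -0.24. The smallest p there belonged to Igf2bp1, an RNA-binding protein of young progenitors, at 225 and 257 CPM in the Mboat7+/- cortices and 220 and 171 CPM in the Mboat7-/- cortices. Both Mboat7-/- cortices were lower, with a log2 difference of -0.30 (SE 0.13, edgeR FDR 0.958).

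The E11.5 pattern of these genes rested on 1 cortex. Lin28a and Lin28b are named after a look at their values. Lin28a was at 19.0 and 14.4 CPM in the Mboat7+/- cortices and at 32.5 and 13.9 CPM in the Mboat7-/- cortices, and Lin28b was at 50.2 and 34.9 CPM against 66.8 and 40.4 CPM. Replicate 1 of the Mboat7-/- cortices was the highest for both. Without it, 3 of the 8 genes were above 0 and the median was -0.01. At E12.5 the count stayed at 1 of 8 above 0 without Mboat7-/- replicate 2, but the median moved from -0.24 to -0.09. Hmga1 was at 5.10 to 6.56 CPM in the E11.5 table and at 246 to 346 CPM in the E12.5 table, which use different annotations, and its reads can be split among near-identical copies.

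Other genes of RGCs lay on both sides of 0. Of 24 further RGC genes 23 were tested at each stage, and none passed the FDR. At E11.5, 9 were above and 14 below 0, with a median of -0.04, and an unadjusted p under 0.05 was reached by 3 higher and 5 lower genes, where 7.94% of all genes were higher and 5.81% lower at that level. Without Mboat7-/- replicate 1 they split into 12 above and 11 below 0. At E12.5, 11 were above and 12 below 0, with a median of -0.02 and 1 higher gene at that level (2.76% of all genes). Lhx2, a selector gene of cortical identity, was at 443 and 475 CPM in the E11.5 Mboat7+/- cortices and at 331 and 420 CPM in the Mboat7-/- cortices, so that replicate 1 was the lowest (log2 -0.29, edgeR FDR 0.28). Nr2e1, the nuclear receptor TLX that maintains neural stem cells, was at 176 and 182 CPM against 144 and 164 CPM there (log2 -0.22, edgeR FDR 0.289). Hopx, a marker of outer and later RGCs, was low throughout. At E11.5 it was at 7.94 and 6.91 CPM against 3.78 and 4.74 CPM (log2 -0.80, edgeR FDR 0.231). One day later it was at 7.545 and 8.34 CPM against 8.51 and 9.37 CPM, with both Mboat7-/- cortices higher (log2 0.17, edgeR FDR 0.958). The 3 higher genes under that p at E11.5, named after a look at their values, were Tnc (log2 0.40), Dach1 (0.24) and Gli3 (0.15). Their genotypes did not overlap either. At E12.5 no gene of this list combined such a p with separate genotypes.

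Relatives of the 10 genes in the SOX, ID, FABP, glutamate transporter and prominin families were 6 above and 4 below 0 at E11.5, and 3 above and 6 below at E12.5, with 1 of 10, Prom2, at 0 counts in that stage's table. Fabp5, the epidermal relative of Fabp7, was at 231 and 240.3 CPM in the E11.5 Mboat7+/- cortices and at 200.3 and 198 CPM in the Mboat7-/- cortices. Both Mboat7-/- cortices were lower (log2 -0.24, edgeR FDR 0.197). Sox3, a close relative of Sox2, was lower likewise, at 202 and 198 CPM against 175 and 175.5 CPM (log2 -0.19, edgeR FDR 0.251). Sox10, a gene of neural crest and oligodendrocyte lineage, was at 3.88 and 3.74 CPM against 6.72 and 5.47 CPM (log2 0.68, edgeR FDR 0.297).

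Markers of the other cells in a dissected cortex were read beside these values, and none of their genes passed the FDR. At E11.5 the 12 neuron genes summed to 2076 and 2351 CPM in the Mboat7+/- cortices and to 1388 and 2183 CPM in the Mboat7-/- cortices. All 12 were below 0 (median log2 -0.24), and replicate 1 of the Mboat7-/- cortices, the one low in Fabp7, Pax6 and Id4, had the lowest sum. Without that cortex 5 of the 12 were above 0 and the median was -0.01, and without replicate 2 the median was -0.64. The 7 IPC genes were also all below 0, with 4 at an unadjusted p under 0.05 (5.81% of all genes were lower at that level, and the number ran from 1 without Mboat7+/- replicate 2 to 7 without Mboat7-/- replicate 2), and summed to 689 and 711.5 CPM against 509 and 656 CPM. The 4 dorsal cortex genes, Pax6 among them, were all below 0 and summed to 793 and 853 CPM against 609.6 and 748 CPM. In the same cortices 9 of the 10 mesenchyme genes were above 0 (6 at an unadjusted p under 0.05, against 7.94% of all genes), with sums of 1695 and 1657 CPM against 1910 and 2084 CPM, which did not overlap. Endothelial genes were above 0 in 8 of 9, microglia genes in 4 of 6, ventral telencephalon genes in 1 of 8 and hem and choroid genes in 1 of 4. All 5 blood genes tested were below 0 (median log2 -0.57), 4 of them at an unadjusted p under 0.05 (5.81% of all genes). Blood genes summed to 6756 and 5092 CPM against 3530 and 3749 CPM, which did not overlap. Hba-a1 and Hba-a2 were listed at 0 in every E11.5 cortex, in a table whose annotation differs from that of E12.5.

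At E12.5 the neuron genes were above 0 in 11 of 12 (median log2 0.16), with sums of 3662 and 3491 CPM in the Mboat7+/- cortices and 3562 and 3769 CPM in the Mboat7-/- cortices, which overlapped. The median was 0.06 without Mboat7-/- replicate 2 and 0.08 without Mboat7+/- replicate 2. IPC genes were above 0 in 5 of 7. Of the 4 dorsal cortex genes, of which Pax6 is 1, 3 were above 0, but 1 of 4 was without replicate 1 of either genotype. Mesenchyme genes were above 0 in 7 of 10, and in 3 of 10 without Mboat7+/- replicate 2. Above 0 were endothelial genes in 7 of 9, microglia genes in 5 of 6, ventral telencephalon genes in 2 of 8 and hem and choroid genes in 2 of 4. All 7 blood genes were below 0 (median log2 -0.57), with an unadjusted p under 0.05 for 6, where 1.35% of all genes were lower at that level. That number was 1 with DESeq2 and 3 with the replicate block, and without Mboat7+/- replicate 2 it was 1, with a median of -0.27 and 1 gene above 0. Blood genes summed to 4867 and 7123 CPM in the Mboat7+/- cortices and to 4961 and 3343 CPM in the Mboat7-/- cortices, so that Mboat7+/- replicate 2, the highest for Hmga2 and Nes, was the highest and Mboat7-/- replicate 2, the lowest for both, was the lowest. The part that other cell types, the sex of the embryos or their exact age has in the differences above was not tested.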

How the data were processed

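RNA-seq was analysed in 8 cortices, 2 per genotype and stage. The authors deposited raw read counts per gene, without normalization, in 1 table per stage, by gene symbol at E11.5 and by Ensembl identifier at E12.5. Poly(A) RNA and a directional kit were used per the labels. E11.5 was sequenced at Rhelixa and E12.5 at KOTAI Biotechnologies, on different NovaSeq models. The submitters' processing notes name HISAT2, Subread, mm10 and GRCm39 without roles or versions, and the strand setting is not given in the sources used here. Identifiers were matched to symbols with tables of gene names and RefSeq genes (98.9% of E11.5 genes with a count, 81.4% at E12.5, holding 99.6% and 99% of the counts).

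The stages were fitted separately in R 4.3.3 with edgeR 4.0.16 (filterByExpr, TMM, glmQLFit and glmQLFTest, Benjamini-Hochberg over all genes tested, FDR 0.05), and genes in both tables were also fitted over all cortices. CPM are TMM-normalized. The alternatives were RLE and upper-quartile scaling, DESeq2 1.42.0, the replicate block, no low-count filter, a minimum of 10 counts per cortex, removal of a trend with exon length and GC content (GENCODE M21, with and without the block) and leaving out each cortex. The script was tested on simulated data.

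The replicate number is also the batch number in the labels and so pairs cortices across genotypes. For E12.5 Mboat7+/- replicate 2, 1 description field repeats the name of replicate 1. Its title and batch number were followed, and the E12.5 within-batch ratios and blocked fit rest on them. Deviations of same-numbered cortices correlated at 0.0833 over genes at E11.5 and at -0.201 at E12.5. The 10 genes, the other gene lists and the tests were chosen with earlier results of these data known. Genes named from other lists are those, up to 3 per list and stage, with the smallest p among those with an unadjusted p under 0.05 and genotypes that did not overlap, as far as a result turned on them; the others are in the counts of their lists. Separately, 1 gene of the dorsal cortex list is not reported here. P-values measure only the spread between these embryos.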

Additional observations from a re-analysis of the deposited data

Results flagged for a closer look

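Among the 10 genes, Pax6 stood out between the stages: both Mboat7-/- cortices were below both controls at E11.5 and above both at E12.5. The difference between the stages' log2 differences, tested as the interaction of stage and genotype in edgeR, was 0.473 (SE 0.12), and it did not pass Benjamini-Hochberg adjustment over 14986 genes (FDR 0.518). It lay between 0.362 and 0.579 when each of the 8 cortices was left out in turn. The interaction was above 0 for all 4 dorsal cortex genes, Pax6 among them (median 0.396). That also held for all 7 IPC genes (median 0.363) and all 12 neuron genes (median 0.345). It was above 0 for 7 of 8 ventral telencephalon genes, 3 of 10 mesenchyme genes and 0 of 8 early neural stem cell genes. The median interaction over all genes tested was 0.004. The E11.5 part of these list medians depended on Mboat7-/- replicate 1. Without that cortex the E11.5 median log2 difference moved from -0.275 to -0.145 for dorsal cortex genes and from -0.275 to -0.108 for IPC genes. For neuron genes it moved from -0.24 to -0.0144. Stage and provider cannot be told apart.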

How the results depend on the processing

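With all cortices kept, none of the 10 genes was called under any alternative planned for any of the 4 comparisons. The number of all genes called moved with the setting. At E11.5 it was 178 with DESeq2, 317 with no low-count filter, 2 with at least 10 counts in every cortex, 349 with the replicate block, 1 with the length and GC trend removed under the block, and 1 to 1180 with a cortex left out. At E12.5, from 3, it was 10 with DESeq2, 0 with no filter, 0 with at least 10 counts, 21 with the replicate block, 7 with the trend removed, 52 with the trend removed under the block, and 33 to 301 with a cortex left out. Over both stages it was 3 with DESeq2, 96 with no filter and 0 to 7 with a cortex left out, and for the interaction 17, 68 and 0 to 117. A block with the E12.5 replicate numbers crossed, chosen after seeing the data, called 148 genes, Nes and Hmga2 among them. Deviations of same-numbered E12.5 cortices correlated at -0.201, so crossing the numbers favors smaller p-values, and these calls are not taken as results. In the labels, 1 field of an E12.5 cortex disagrees on its number, and which pairing is right was not tested. The replicate block as numbered changed no FDR call of the 10 genes, and changed which had an unadjusted p under 0.05 in all 4 comparisons. Of the 10 genes, 0 to 5 were called at E11.5 and 0 to 1 at E12.5 with a cortex left out. Their median log2 difference ran between -0.143 and -0.0062 for E11.5, between -0.105 and 0.0455 for E12.5, and that of the interaction from -0.0935 to 0.134.

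Small differences changed sign. With the length and GC trend removed, without and with the block, E11.5 Slc1a3 was -0.0235 and -0.0384, E11.5 Hmga2 -0.0117 and -0.0175, E12.5 Vim -0.016 and -0.0163, Prom1 over both stages -0.00491 and -0.00885, and the Sox2 interaction -0.0414 and -0.0428. E12.5 Prom1 was 0.00105 with no filter and 0.00114 with at least 10 counts. When single cortices were left out, the log2 difference at E11.5 ran from -0.115 to 0.177 for Nes, from -0.164 to 0.32 for Slc1a3 and from -0.0703 to 0.206 for Hmga2. At E12.5 it ran from -0.063 to 0.0931 for Vim, from -0.151 to 0.000453 for Sox2, from -0.153 to 0.068 for Sox9, from -0.0725 to 0.0621 for Prom1 and from -0.0675 to 0.0374 for Id4. Over both stages it ran from -0.0873 to 0.000606 for Vim and from -0.0853 to 0.0688 for Pax6. The interaction ran from -0.0604 to 0.0736 for Sox2, from -0.145 to 0.576 for Fabp7 and from -0.181 to 0.317 for Slc1a3. The cause was not tested. With 2 cortices per genotype, the standard error of a log2 difference was between 0.06 and 0.19 for the 10 genes at E11.5 and between 0.09 and 0.22 at E12.5, which limits what could be called, and a cortex that stands alone for its genotype is assumed to vary like the rest.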
